A study of Mus musculus with 18 samples.

Results

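The comparison described here sets mouse embryonic stem (ES) cells of the line PL2F8 against ES cells of the line AB2.2 at day 0, before the cytokine LIF was taken away. Its members are the arrays whose titles carry the line and 0 days, 2 for PL2F8 and 2 for AB2.2, or 4 of the 18 arrays of the series, and all genes were compared. The series followed total RNA from both lines on Illumina bead arrays at days 0, 2, 4, 6 and 8 after LIF removal, with 2 arrays for each line and day and 1 for each line at day 8. The labels give the line names and the day, and state no genotype, strain, passage, medium or feeder layer for either line, so what both lines share beyond being mouse ES cells is not stated. Separate cultures are not stated for the arrays of a group, so the p-values rest on array to array spread alone, which could be technical.

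LIF acts through the receptor pair LIFR and gp130 on the kinase JAK1 and the transcription factor STAT3, which feeds the naive pluripotency factors Klf4, Tfcp2l1 and Esrrb. In ES cells this state is kept beside the core factors Pou5f1, Sox2 and Nanog, while FGF and ERK signalling pushes cells towards the postimplantation epiblast or the primitive endoderm. ES cultures are mixtures, in which single cells move in and out of states marked by genes such as Dppa3, Gata6 or the 2-cell genes.

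Values below are background-corrected, quantile-normalized signals on the log2 scale, on which 1 unit is a 2-fold change and an undetected probe lies near 4.3. Differences are PL2F8 minus AB2.2 with the standard error of the model after ±. A gene was called where the limma test gave a Benjamini-Hochberg adjusted p below 0.05 over 16113 genes. Fewer cells of a type and less RNA per cell cannot be told apart in such bulk samples.

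The day 0 arrays were alike in brightness: the mean signal was 370.6 and 396.1 in PL2F8, against 388.5 and 360.9 in AB2.2. They detected 43.6% and 43.9% of probes in PL2F8, against 41.9% and 42.3% in AB2.2. The ES cell markers Pou5f1, Sox2, Nanog, Zfp42, Esrrb, Tdgf1 and Utf1 were detected on all 4 arrays. Of 8 fibroblast markers, looked at because ES cells are often grown on feeder cells, 4 were detected in PL2F8 and 3 in AB2.2, with summed linear signals of 792 and 756 in PL2F8 and 400 and 425 in AB2.2. Col1a1, Thy1 and Fbn1 were detected in both lines and Dcn in PL2F8 alone, while Col1a2, Col3a1, Postn and Lum were detected on none of the 4 arrays. Thy1 was the brightest of these markers and weighed most in the sums, with 9.08 and 8.97 in PL2F8 and 7.66 and 7.71 in AB2.2. Col1a1 went the other way, with 5.1 and 5.1 in PL2F8 and 5.8 and 6.0 in AB2.2. Of 6 endoderm markers, Gata6, Sox17 and Dab2 were detected in both lines and Gata4, Afp and Ttr on no array, with summed linear signals over all 6 of 408 and 408 in PL2F8 and 1190 and 1140 in AB2.2. Xist, the RNA of the inactive X, had 4 probes, and none was detected on any day 0 array.

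The lines differed in many genes by small amounts and in a few genes by a great deal. At day 0, 2310 genes were higher in PL2F8 (14.3% of those tested) and 2108 were lower (13.1%). A difference of at least 2-fold was called for 195 of the higher genes (1.21% of those tested) and 105 of the lower genes (0.652%). With each array scaled to its median in place of quantile normalization the counts were 3486 higher and 1144 lower, so 75.3% of the called genes were then higher, against 52.3% in the quantile-normalized data. Without PL2F8 replicate 1 the counts were 1534 and 1341, and without PL2F8 replicate 2 they were 1506 and 1348. The replicates of a line correlated across genes at 0.998 in PL2F8 and 0.996 in AB2.2, and arrays of different lines at 0.985, as a description over genes that are not independent of each other.

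Placental prolactin genes led the genes that were higher in PL2F8. Prl2c2, which encodes a proliferin, a secreted hormone of the trophoblast, had 9.92 and 9.84 in PL2F8 and 5.52 and 5.55 in AB2.2 (4.35 ± 0.08, adjusted p = 5.82e-12). Its close copy Prl2c3 had 9.90 and 10.03 in PL2F8, against 5.66 and 5.58 in AB2.2 (4.35 ± 0.09, adjusted p = 2.75e-11). Both genes had a second probe with a difference of 3.60 and 4.18, and since the copies are nearly identical, a probe of one may read the other. Related genes of the same chromosome 13 family were detected in PL2F8 alone: Prl3d3 was at least 3.21-fold higher and Prl4a1 at least 2.72-fold higher, where the bound sets the PL2F8 mean against the lowest signal of a detected probe in AB2.2. The other Prl3d3 probes gave differences between 0.12 and 0.25. The placental cathepsin gene Ctsj was at least 3.38-fold higher, with 6.58 and 6.50 in PL2F8 and no detection in AB2.2. Plac1, another placental gene, had 6.58 and 6.43 in PL2F8, against 4.95 and 4.66 in AB2.2, where 1 of the 2 arrays detected it (1.70 ± 0.15, adjusted p = 9.04e-06). Of 14 tested trophectoderm genes 4 were higher (28.6%) and 2 lower (14.3%), with a median of 0.08. Besides Prl2c2 and Plac1, the transcription factor Tfap2c was higher (0.32), and Gata3, another transcription factor, was detected in PL2F8 alone and was at least 1.18-fold higher. The keratins Krt8 and Krt18 were lower (-0.69 and -0.86), and Cdx2 and Elf5 were detected on none of the 4 arrays. Without AB2.2 replicate 2 the higher genes of this list numbered 2.

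**Figure D1:**
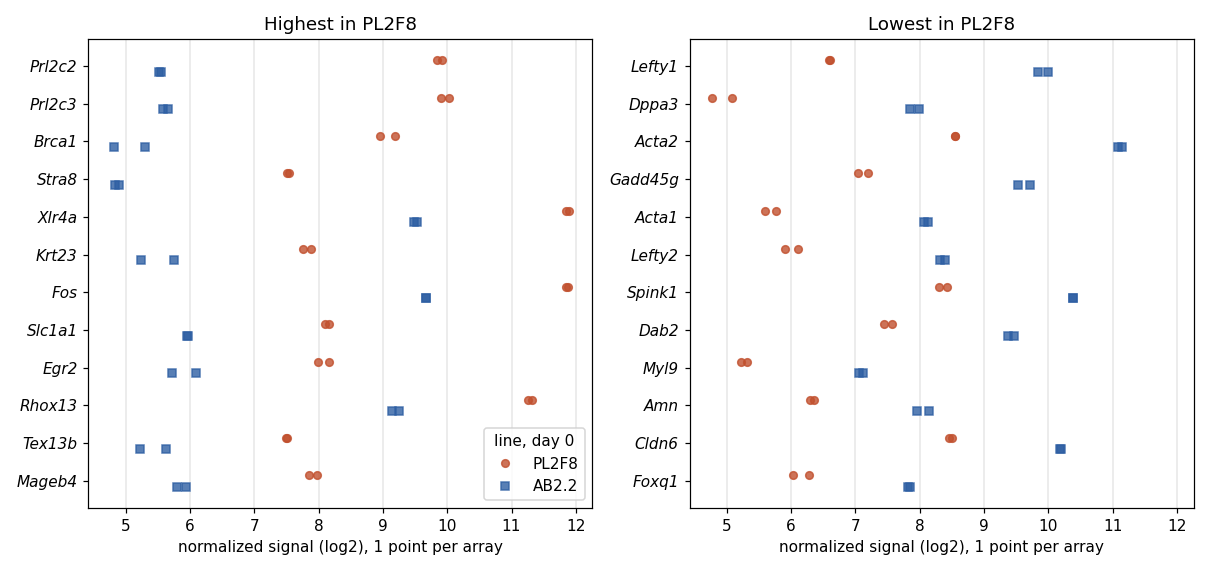
Normalized signal (log2, x axis) of the 12 highest and 12 lowest called genes that were detected on all 4 day 0 arrays. Each point is 1 array, circles for PL2F8 and squares for AB2.2, and in every gene both PL2F8 arrays lie on 1 side of both AB2.2 arrays, as the choice of these genes required.

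The third highest difference belonged to 1 probe of Brca1, which encodes a DNA repair and tumour suppressor protein. This probe had 9.18 and 8.95 in PL2F8, against 4.82 and 5.31 in AB2.2 (4.01 ± 0.13, adjusted p = 2.36e-09). The other Brca1 probe pointed the other way, with 5.59 and 5.60 in PL2F8 and 6.14 and 5.82 in AB2.2, a difference of -0.38. The probe sequences were not used here, so which part of the transcript each probe reads was not settled. The brighter probe also differed at days 2 and 4, by 3.95 and 3.09.

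Germ line genes had the largest share of higher members among the 40 gene lists described, 68.4%, closely followed by feeder fibroblast markers with 66.7%. The lists were chosen with earlier results of these data known. Of 19 tested germ line and meiosis genes 13 were higher in PL2F8 and 1 was lower, with a median difference of 0.62, beside 14.3% higher, 13.1% lower and a median of -0.00094 over all genes, against which the counts of the other lists are read as well. The list had 24 genes. Mael, the meiosis genes Sycp1, Sycp3 and Hormad1, and Slc25a31 were not tested, since no probe was detected on at least 2 of the 18 arrays. Stra8, the retinoic acid-induced gene of meiotic entry, had 7.51 and 7.54 in PL2F8 and 4.84 and 4.89 in AB2.2 (2.66 ± 0.08, adjusted p = 1.33e-09). Dazl, an RNA-binding protein of germ cells, had 9.77 and 9.92 in PL2F8, against 7.96 and 8.03 in AB2.2 (1.85 ± 0.10, adjusted p = 1.38e-07). Tex13b had 7.49 and 7.51 in PL2F8 and 5.23 and 5.63 in AB2.2 (2.07 ± 0.11, adjusted p = 1.83e-07). In these genes, named for their small p, both PL2F8 arrays lay above both AB2.2 arrays, as in 32.7% of all genes tested. Smaller differences were called for the piRNA pathway genes Asz1 (1.47), Rnf17 (0.78), Stk31 (0.62) and Mov10l1 (0.52), the transcription factors Sohlh2 (1.09) and Taf7l (1.03), the meiotic cohesin Stag3 (0.38) and the meiosis gene Tex11 (0.49). Tdrd12, a further piRNA gene, was lower, with 8.67 and 8.69 in PL2F8 and 10.07 and 10.01 in AB2.2 (-1.36 ± 0.09, adjusted p = 6.16e-07). The tubulins Tuba3a and Tuba3b, nearly identical to each other, were higher by 1.16 and 0.98. Ddx4 did not pass the threshold (-0.13), and Tdrd1 was detected on 1 of the 4 arrays. Without PL2F8 replicate 1 or AB2.2 replicate 2 the lower genes of the list numbered 2. At day 2, 12 of the 19 genes were called higher and 0 lower, and at day 4, 16 and 0, where 11.8% and 21.3% of all genes were called higher. The 2-cell and oocyte list split. The maternal-effect gene Nlrp14 had 8.57 and 8.61 in PL2F8 and 7.12 and 6.91 in AB2.2 (1.58 ± 0.11, adjusted p = 8.18e-07), and the homeobox gene Obox6 was higher too (0.82), while Zscan4c, Tcstv1, Tcstv3, Tmem92, Khdc3 and Ooep were lower (-0.31 to -0.96), or 2 higher (18.2%) and 6 lower (54.5%) of 11.

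Germ line promoters are known to carry the letters CACGTG, an E-box read by MAX complexes that keep such genes silent in ES cells, and these letters were looked for in the 250 bases before each gene's start in RefSeq (GRCm38.p6), on both strands. Of the 16 germ line genes with a promoter entry 7 held it (43.8%), against 9.78% of 10353 promoters of all genes tested. Of these 7, Taf7l, Stk31, Mov10l1 and Stag3 were called higher in PL2F8, and Ddx4, Tdrd1 and Tdrd9 were not called at day 0. In the whole list 13 of the 19 tested genes were called higher (68.4%), and whether the E-box bears on the difference was not tested. The stretches around the E-box of the 4 called genes are shown 5′ to 3′ on the gene's own strand, with CACGTG in capitals, to let the shared core be compared with its flanks.
Taf7l, chrX:134476491-134476584, minus strand: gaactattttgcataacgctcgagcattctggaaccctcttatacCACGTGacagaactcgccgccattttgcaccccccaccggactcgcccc
Stk31, chr6:49395439-49395534, plus strand: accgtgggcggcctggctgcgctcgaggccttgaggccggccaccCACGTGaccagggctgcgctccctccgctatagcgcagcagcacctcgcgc
Mov10l1, chr15:88982744-88982798, plus strand: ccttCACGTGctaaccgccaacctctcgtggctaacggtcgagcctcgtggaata
Stag3, chr5:138280294-138280389, plus strand: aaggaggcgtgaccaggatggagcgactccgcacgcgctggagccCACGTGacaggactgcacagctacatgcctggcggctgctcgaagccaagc

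Several X-linked genes were among the highest in PL2F8. The list of 13 tested sex chromosome genes had 4 higher and 1 lower, with a median of 0.01, and the genes below that are outside it were named from the top of the comparison. Xlr4a, of a lymphocyte-regulated gene family, had 11.84 and 11.90 in PL2F8 and 9.53 and 9.49 in AB2.2 (2.36 ± 0.09, adjusted p = 9.06e-09). Rhox13, a homeobox gene of germ cells, had 11.32 and 11.25 in PL2F8, against 9.25 and 9.14 in AB2.2 (2.10 ± 0.08, adjusted p = 7.33e-09). Mageb4, a cancer-testis antigen, had 7.85 and 7.98 in PL2F8 and 5.81 and 5.94 in AB2.2 (2.04 ± 0.12, adjusted p = 4.12e-07). Xlr5a and Xlr4c were detected in PL2F8 alone and were at least 5.48-fold and 2.98-fold higher. These families have near-identical copies, so a probe may read several members. Rhox9 and Rhox6 were higher by 0.98 and 0.61, while Rhox5 did not pass the threshold (-0.10). Of 481 X-linked genes 103 were higher (21.4%) and 58 lower (12.1%), with a median of 0.02. The Y-linked genes Eif2s3y and Uty did not pass the threshold (0.01 and -0.18), and Ddx3y was lower, with 9.18 and 9.07 in PL2F8 and 10.01 and 9.99 in AB2.2 (-0.88 ± 0.12, adjusted p = 0.000188).

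Immediate early genes, transcription factors that growth signals switch on within minutes, were higher in PL2F8 for the Fos and Egr families. Fos had 11.84 and 11.87 in PL2F8, against 9.67 and 9.68 in AB2.2 (2.18 ± 0.10, adjusted p = 4.74e-08). Egr2 had 7.99 and 8.17 in PL2F8 and 6.10 and 5.72 in AB2.2 (2.17 ± 0.15, adjusted p = 8e-07). Egr1 had 13.50 and 13.46 in PL2F8, against 12.33 and 12.30 in AB2.2 (1.17 ± 0.09, adjusted p = 2.54e-06). In these genes too, chosen by their small p, the lines did not overlap. Fosb (1.505), Egr3 (1.00), Jun (0.59) and Junb (0.40) were higher too, although Egr3 gave -0.02 without background correction. The feedback genes Zfp36 and Dusp2 and the factor Klf6 were lower (-0.45, -0.42 and -0.36), Dusp1, Atf3 and the serum response factor Srf did not pass the threshold, and Ier2 was not detected. Of 18 tested genes 7 were higher (38.9%) and 3 lower (16.7%), with a median of 0.19, and 1 was lower with median scaling, without PL2F8 replicate 1 or without AB2.2 replicate 2. At day 2, 2 were higher and 8 lower, where 11.8% of all genes were called higher and 11.9% lower. Fos then differed by -0.11 and did not pass the threshold, and Egr2 was detected in neither line. At day 4, 3 of the list were higher and 10 lower, where 21.3% and 20.6% of all genes were called higher and lower. The Fos difference was 1.185 at day 4. Cxcl1, a neutrophil chemokine, was detected in PL2F8 alone, with 8.16 and 8.33 there, and was at least 11-fold higher, which was the largest bound of any gene detected in PL2F8 only.

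The contractile and cytoskeletal genes were the list with the lowest median. Of 22 tested genes 15 were lower in PL2F8 (68.2%, against 13.1% of all genes) and 2 higher (9.09%, against 14.3%), with a median of -0.61. Acta2, smooth muscle actin, had 8.55 and 8.55 in PL2F8 and 11.09 and 11.14 in AB2.2 (-2.56 ± 0.10, adjusted p = 1.09e-08). Acta1, skeletal muscle actin, had 5.60 and 5.77 in PL2F8, against 8.13 and 8.07 in AB2.2 (-2.41 ± 0.14, adjusted p = 2.4e-07). The myosin light chain gene Myl9 had 5.22 and 5.32 in PL2F8 and 7.12 and 7.06 in AB2.2 (-1.82 ± 0.12, adjusted p = 6.79e-07). In each of these genes, named for their small p, both PL2F8 arrays lay below both AB2.2 arrays, as in 31.8% of all genes tested. Tagln, another smooth muscle gene, was detected in AB2.2 only and was at least 2.19-fold lower in PL2F8. Calponin Cnn2 (-1.12), the tropomyosins Tpm2 (-1.06) and Tpm1 (-0.79), lamin A Lmna (-1.04) and caldesmon Cald1 (-0.53) were lower as well. The repressors Snai2 and Zeb1 were the 2 higher members (0.75 and 0.59). The median was -0.57 with median scaling and -0.31 without background correction, with 14 and 15 genes lower.

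Both groups include textbook targets of the serum response factor, which binds the CArG box. A CArG box lay in the 250 bases before the start of 3 of the 15 cytoskeletal genes with a promoter entry (20%) and of 3 of the 14 immediate early genes (21.4%), against 1.56% of all 10353 promoters. Genes that held the box lay on both sides of the comparison: Acta1, Myl9, Cnn2 and Zfp36 were lower in PL2F8, Egr2 was higher, and Srf was not called. The stretches are given with the CArG box in capitals (GRCm38.p6, 5′ to 3′ on the gene's strand), to set the 3 lower genes beside Egr2.
Acta1, chr8:123894794-123894893, minus strand: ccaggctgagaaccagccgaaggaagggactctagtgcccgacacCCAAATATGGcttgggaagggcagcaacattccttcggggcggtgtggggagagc
Myl9, chr2:156775258-156775357, plus strand: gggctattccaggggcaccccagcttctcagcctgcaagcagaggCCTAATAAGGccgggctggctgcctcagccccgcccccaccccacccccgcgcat
Cnn2, chr10:79988499-79988598, plus strand: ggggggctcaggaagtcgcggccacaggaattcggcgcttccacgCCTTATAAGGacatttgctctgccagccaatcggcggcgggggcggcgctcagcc
Egr2, chr10:67537449-67537548, plus strand: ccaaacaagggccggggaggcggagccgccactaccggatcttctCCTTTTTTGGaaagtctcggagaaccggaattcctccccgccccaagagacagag

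Lefty1 and Lefty2, secreted inhibitors of the growth factor Nodal and themselves Nodal targets, were lower in PL2F8. Lefty1 had the lowest difference among the genes named here, with 6.597 and 6.604 in PL2F8 and 9.99 and 9.83 in AB2.2 (-3.31 ± 0.08, adjusted p = 1.58e-10). Lefty2 had 5.91 and 6.12 in PL2F8, against 8.39 and 8.31 in AB2.2 (-2.33 ± 0.13, adjusted p = 2.22e-07). The ligand Gdf3 was lower (-0.74), whereas Nodal itself and its coreceptor Tdgf1 did not pass the threshold (-0.18 and 0.07). The BMP target Id1 and the receptor Acvr2b were higher (0.36 and 0.32). Of the 17 tested genes of this list 3 were higher (17.6%) and 4 lower (23.5%), against 14.3% and 13.1% of all genes, so the higher share lay near that of all genes. Without PL2F8 replicate 1 the list had 1 higher gene.

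The naive factors differed in both directions. Dppa3, a maternal factor that protects DNA methylation imprints, had 5.09 and 4.78 in PL2F8 and 7.99 and 7.84 in AB2.2 (-2.98 ± 0.13, adjusted p = 2.1e-08). Klf4 had 10.82 and 10.82 in PL2F8, against 9.88 and 9.84 in AB2.2 (0.96 ± 0.13, adjusted p = 0.000172). Tbx3, another naive factor, was higher by 0.93, and Klf5, Tet2, Pecam1 and Tfcp2l1 by 0.67, 0.49, 0.43 and 0.40. The lysosomal enzyme gene Manba, a marker on this list, had 11.85 and 11.95 in PL2F8 and 10.53 and 10.56 in AB2.2 (1.36 ± 0.08, adjusted p = 2.4e-07). Of 23 naive genes 10 were higher (43.5%, against 14.3% of all genes) and 4 lower (17.4%, near the 13.1% of all genes), with a median of 0.23. Zfp42 and Esrrb did not pass the threshold (0.23 and 0.28, adjusted p = 0.138 and 0.0558), and the second Esrrb probe was not detected. Core factors lay closer together. Nanog had 12.49 and 12.30 in PL2F8 and 12.01 and 11.93 in AB2.2 (0.42 ± 0.10, adjusted p = 0.00921), with 0.52 at its other probe. Pou5f1 (-0.12, adjusted p = 0.483) and Sox2 (0.24, adjusted p = 0.0929) did not pass the threshold. Utf1, Lin28a and L1td1 were lower (-0.77, -0.59 and -0.41), and 1 of 16 core genes was higher (6.25%) and 4 were lower (25%). The lower genes numbered 2 with median scaling, with the day 0 arrays alone or without AB2.2 replicate 1, and 1 without PL2F8 replicate 1. Without PL2F8 replicate 1 or AB2.2 replicate 2 no core gene was called higher.

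In the LIF pathway 4 of the 14 tested signalling genes were higher (28.6%) and 1 lower (7.14%). Lifr, the LIF receptor, had 6.59 and 6.73 in PL2F8 and 5.84 and 5.71 in AB2.2 (0.88 ± 0.11, adjusted p = 0.000103). Stat3 had 9.59 and 9.57 in PL2F8, against 9.12 and 8.86 in AB2.2 (0.59 ± 0.10, adjusted p = 0.00107). Jak1 was higher by 0.49, and the phosphatase gene Ptpn11 was lower (-0.27), a call lost with median scaling, without either PL2F8 array and without AB2.2 replicate 2. The coreceptor gp130, encoded by Il6st, and the feedback inhibitor Socs3 did not pass the threshold (both 0.00, adjusted p = 0.993 and 0.997). Of 16 LIF and STAT3 targets 7 were higher (43.8%) and 3 lower (18.8%), against 14.3% and 13.1% of all genes. The median of this list was -0.0039, near the -0.00094 of all genes. Klf4, Fos and Egr1 were among the higher ones, and Fos and Egr1 also stand on the immediate early list. The lower ones were the growth arrest gene Gadd45g, with 7.05 and 7.19 in PL2F8 and 9.53 and 9.71 in AB2.2 (-2.50 ± 0.08, adjusted p = 2.36e-09), the homeobox factor Gbx2 (-1.15 ± 0.10, adjusted p = 7.96e-06) and Myc (-0.67 ± 0.11, adjusted p = 0.000753).

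Of 27 tested primitive and visceral endoderm genes 14 were lower in PL2F8 (51.9%, against 13.1% of all genes) and 0 higher, with a median of -0.28. Dab2, an endocytic adaptor, had 7.58 and 7.45 in PL2F8 and 9.47 and 9.37 in AB2.2 (-1.91 ± 0.09, adjusted p = 4.78e-08), with -1.98 at another probe. Amn, which anchors the receptor cubilin, had 6.36 and 6.30 in PL2F8, against 7.95 and 8.14 in AB2.2 (-1.72 ± 0.09, adjusted p = 1.07e-07). Spink1, a protease inhibitor, had 8.43 and 8.31 in PL2F8 and 10.39 and 10.39 in AB2.2 (-2.02 ± 0.10, adjusted p = 5.3e-08). The transcription factors Gata6, Sox7 and Sox17 were lower (-1.46, -1.60 and -1.02). Gata4, Afp and Ttr were detected on none of the 4 arrays. At day 2, 0 were higher and 21 lower, and at day 4, 0 and 24, with medians of -1.76 and -2.32, where 11.9% and 20.6% of all genes were called lower.

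Genes of the epiblast (40% lower and 6.67% higher), of epithelial junctions (37.5% and 18.8%) and of FGF feedback (35.7% and 0%) were called lower more often than higher, where all genes had 13.1% lower and 14.3% higher. Cldn6 had 8.46 and 8.50 in PL2F8 and 10.20 and 10.18 in AB2.2 (-1.71 ± 0.09, adjusted p = 1.07e-07), and the claudins Cldn3 and Cldn4 were lower (-1.55 and -1.33). Esrp1, an epithelial splicing factor, had 7.39 and 7.41 in PL2F8, against 8.83 and 8.80 in AB2.2 (-1.41 ± 0.09, adjusted p = 5.82e-07). The junction genes Ocln, Dsg2 and Dsp were higher (0.69, 0.59 and 0.34), giving 3 higher and 6 lower of 16. Among 15 epiblast genes 6 were lower, with Dnmt3b at -0.92 ± 0.08 (adjusted p = 9.52e-06), Sox11 at -1.20 and Pou3f1 at -1.18, and 1, Zic2, was higher (0.58), a call lost when any 1 of the 4 day 0 arrays was left out. Otx2 did not pass the threshold, and Fgf5 was not detected. Of 14 FGF and ERK feedback genes 5 were lower and 0 higher: the ligands Fgf17 (-1.28) and Fgf15 (-0.80), the phosphatase Dusp4 (-0.73), the receptor Fgfr2 (-0.58) and the inhibitor Spry4 (-0.46). Of 21 Wnt pathway genes 5 were lower (23.8%) and 2 higher (9.52%), with a median of -0.05. The lower ones were Sp5 (-1.38) and Axin2 (-0.79), which Wnt signalling induces, the ligand Wnt7b (-1.14), the receptor Fzd7 (-0.68) and the cyclin Ccnd1 (-0.46). The higher ones were the receptor Fzd5 (0.35) and beta-catenin Ctnnb1 (0.24), although Ctnnb1 gave -0.068 with the mean of its probes. The higher genes numbered 1 without PL2F8 replicate 1, PL2F8 replicate 2 or AB2.2 replicate 2.

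**Figure D2:**
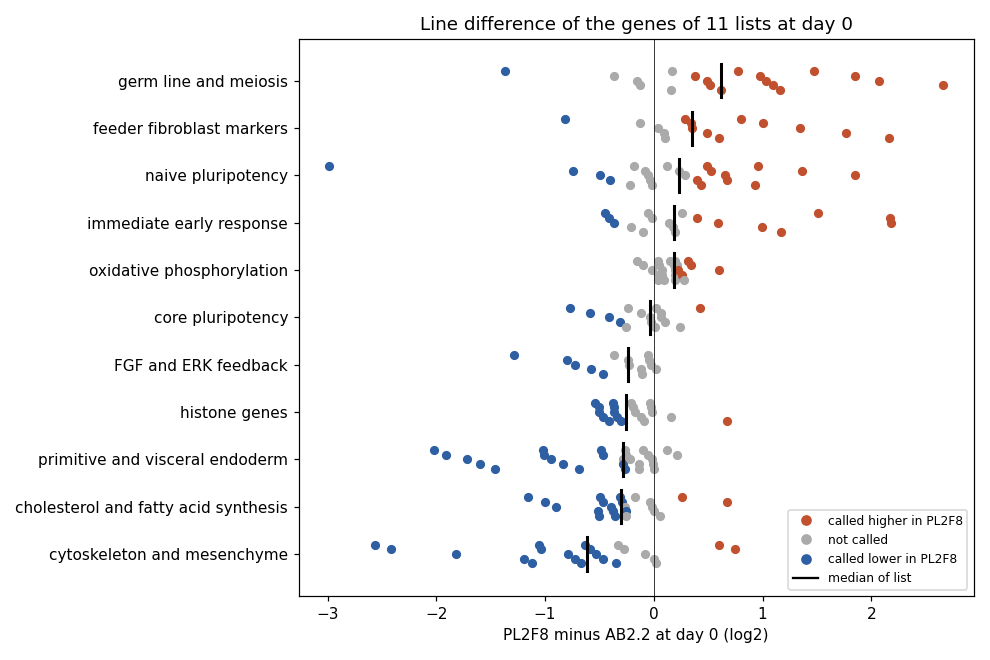
Difference between PL2F8 and AB2.2 at day 0 (log2, x axis) for every tested gene of 11 lists, 1 point per gene and a black bar at the list median. Points are coloured by whether the gene was called higher, called lower or not called in PL2F8, and the medians run between 0.62 for germ line genes and -0.61 for cytoskeletal genes.

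Sterol synthesis genes were mostly lower. Of 22 tested cholesterol and fatty acid genes 13 were lower in PL2F8 (59.1%) and 2 higher (9.09%), with a median of -0.30. Lanosterol synthase Lss had 8.06 and 8.18 in PL2F8, against 9.14 and 9.10 in AB2.2 (-0.997 ± 0.11, adjusted p = 4.66e-05), and the desaturase Scd2 had 6.68 and 6.49 in PL2F8, against 7.68 and 7.80 in AB2.2 (-1.16 ± 0.14, adjusted p = 6.54e-05). The regulator Srebf2 was lower by a smaller amount (-0.29), and Sc5d and Elovl6 were the higher ones (0.67 and 0.26), of which at most 1 was called without any 1 of the 4 arrays. The count of lower genes was 6 with median scaling, 6 without PL2F8 replicate 1 and 8 without AB2.2 replicate 1. At day 2 the same list had 1 higher and 8 lower, where 11.8% and 11.9% of all genes were called higher and lower. At day 4 it had 12 higher and 0 lower, where the shares of all genes were 21.3% and 20.6%. Of 21 genes of the ATF4 amino acid response 9 were lower (42.9%) and 3 higher (14.3%), with Atf5 at -0.98, Ddit4 at -0.71 and Atf4 at -0.39, but 2 were lower with median scaling and 4 without AB2.2 replicate 2, and 1 was higher without PL2F8 replicate 1 or either AB2.2 array. Oxidative phosphorylation genes had 5 higher (21.7%) and 0 lower of 23, between 1 and 3 higher without any 1 of the 4 arrays, with a median of 0.18, led by Cox7a1 (0.60 ± 0.07, adjusted p = 8.8e-05). Ribosomal proteins had 2 higher and 0 lower of 23, of which Rpl22 stood apart, with 10.69 and 10.72 in PL2F8 and 9.84 and 9.88 in AB2.2 (0.85 ± 0.07, adjusted p = 4.19e-06). DNA replication genes had few called members, with 2 higher (8.33%) and 1 lower (4.17%) of 24, beside the 14.3% and 13.1% of all genes. Mitotic genes lay near those shares, with 2 higher (11.1%) and 3 lower (16.7%) of 18.

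Fibroblast genes had mostly higher values. Of 15 tested feeder fibroblast markers 10 were higher in PL2F8 (66.7%, against 14.3% of all genes) and 1 lower (6.67%, against 13.1%), with a median of 0.35, and 6 were higher without either AB2.2 array. The proteoglycan Dcn was detected in PL2F8 alone, with 6.55 and 6.57 there, and was at least 3.42-fold higher. Thy1, a surface protein, had 9.08 and 8.97 in PL2F8, against 7.66 and 7.71 in AB2.2 (1.34 ± 0.10, adjusted p = 2.14e-06). The matrix protein Fbln2 had 8.08 and 8.23 in PL2F8 and 6.40 and 6.37 in AB2.2 (1.77 ± 0.12, adjusted p = 6.45e-07). The collagen Col1a1 was lower (-0.82), and Col1a2, Col3a1, Postn and Lum were detected on none of the 4 arrays.

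Interferon and antigen presentation genes had 9 lower (40.9%, against 13.1% of all genes) and 3 higher (13.6%, near the 14.3% of all genes) of 22. The antiviral gene Bst2 had 6.44 and 6.50 in PL2F8, against 8.04 and 8.02 in AB2.2 (-1.56 ± 0.16, adjusted p = 2.81e-05), Ifitm3 had 10.47 and 10.35 in PL2F8 and 11.79 and 11.87 in AB2.2 (-1.42 ± 0.08, adjusted p = 2.22e-07), and the GTPase Gbp2 was lower (-1.54), with -0.11 at its other probe. B2m, the MHC class I light chain, was higher (0.53). With median scaling the counts were 6 lower and 6 higher, and 1 was higher without AB2.2 replicate 1. Imprinted genes had 11 lower (40.7%, against 13.1% of all genes) and 5 higher (18.5%, near the 14.3% of all genes) of 27. The growth inhibitor Phlda2 had 9.47 and 9.40 in PL2F8 and 10.51 and 10.61 in AB2.2 (-1.12 ± 0.08, adjusted p = 2.07e-06), and Cdkn1c and Igf2 were lower (-0.65 and -0.79). H19, the noncoding neighbour of Igf2, was higher (0.47 ± 0.08, adjusted p = 0.000995). Dlk1, on chromosome 12, had 9.003 and 9.05 in PL2F8, against 7.67 and 7.66 in AB2.2 (1.36 ± 0.07, adjusted p = 1.48e-07), and its noncoding neighbour Meg3 was lower (-0.31 ± 0.09, adjusted p = 0.0193). With median scaling the imprinted counts were 6 lower and 5 higher, and 7 were lower without either PL2F8 array.

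Called genes also lay beside each other on the chromosomes. Among 13073 genes with a place in RefSeq there were 50 runs of at least 4 neighbouring tested genes called in the same direction, 29 higher and 21 lower, and leaving out any 1 of the 4 day 0 arrays left between 8 and 10 higher and between 8 and 11 lower. With median scaling there were 68 higher and 9 lower. Runs of lower genes held the histone clusters. On chromosome 13 a run of 9 led from H2bc14 to H2ac24 (median -0.54), and further runs of 5 and 6 lay in the same cluster, while on chromosome 3 a run of 6 held H2bc21 and 4 further histone genes (median -0.79). Histone copies are nearly identical, so a probe may read several, and of 20 listed histone genes 10 were lower (50%, against 13.1% of all genes) and 1, the replication-independent H3f3b, was higher (0.67). With median scaling 6 were lower. On chromosome 13 a run of 5 held the 2-cell genes Tcstv1 and Tcstv3 (-0.45 and -0.96), again close copies. On the X chromosome a run of 6 higher genes led from Phf6 to Mospd1 and included Hprt, the purine salvage enzyme, with 8.27 and 8.23 in PL2F8 and 7.74 and 7.65 in AB2.2 (0.55 ± 0.11, adjusted p = 0.00213), and Plac1.

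The longest run, 12 genes from Eif5 to Atp5mpl, lay at the end of chromosome 12, where most genes were lower in PL2F8. From the first gene of the first such run, next to Dio3, to the last tested gene, Sp8, there were 60 tested genes, a stretch chosen after its values were seen. Of these 42 were called lower (70%) and 0 higher, 54 were below 0, and the median was -0.51 with quartiles of -0.74 and -0.27. The other 374 genes of chromosome 12 had 9.63% called lower, 15% higher and a median of 0.02. Just before the stretch, between Papola and Rtl1, lower calls were made for Papola (-0.37), Vrk1 (-0.90), Setd3 (-0.55), Evl (-0.49), Wars (-0.71) and Meg3 (-0.31). Dlk1 was called higher there (1.36), and the remaining genes did not pass the threshold. The start of the stretch follows from the run rule, and where the shift begins was not tested. The chaperone Hsp90aa1 had 11.07 and 11.04 in PL2F8, against 11.77 and 11.58 in AB2.2 (-0.61 ± 0.09, adjusted p = 0.000295). Creatine kinase Ckb had 11.85 and 11.85 in PL2F8 and 12.63 and 12.57 in AB2.2 (-0.75 ± 0.07, adjusted p = 1.15e-05). The chromatin gene Mta1 had 5.72 and 5.45 in PL2F8, against 6.40 and 6.36 in AB2.2 (-0.79 ± 0.10, adjusted p = 0.000116). The Notch ligand Jag2 (-0.53), the repair gene Xrcc3 (-0.42) and the motor genes Dync1h1 (-0.36) and Klc1 (-0.40) were lower, and the kinase gene Akt1, detected on 1 of the 4 arrays, did not pass the threshold (0.17). Each PL2F8 array set against each AB2.2 array gave a median between -0.54 and -0.46 over the 60 genes. Without 1 of the day 0 arrays between 31 and 37 of them were called lower, and with median scaling 35 were lower and 1 was higher.

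Most of the same 60 genes were also lower on the arrays of the following days. Those arrays are not among the 4 compared at day 0, but normalization, choice of probes and pooled spread used all 18 arrays. At day 2, 38 were called lower and 0 higher (median -0.52), where 11.9% of all genes were called lower. At day 4, 36 were lower and 1 higher (median -0.47), where 20.6% were called lower. At day 6, 38 were called lower and 7 higher (median -0.39), where 34.1% of all genes were called lower and 30.7% higher. At day 8, with 1 array for each line, 40 lay below 0, with a median of -0.50 against -0.17 over all genes. Their quartiles were then wide, -1.44 and 0.38. The rest of chromosome 12 was also low at day 8, with 231 of 374 genes below 0 and a median of -0.27. The PL2F8 arrays of days 6 and 8 were dim, as described below, and their part in this was not tested. Among 12586 windows of 25 neighbouring tested genes the lowest day 0 median, -0.57, was that of the window from Siva1 to Dnah11 at this end, with -0.625 at day 2 and -0.585 at day 4. Off chromosome 12 the lowest window, in the histone cluster of chromosome 13, had -0.485 at day 0, -0.16 at day 2 and -0.27 at day 4. The cause of the shift was not tested.

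**Figure D3:**
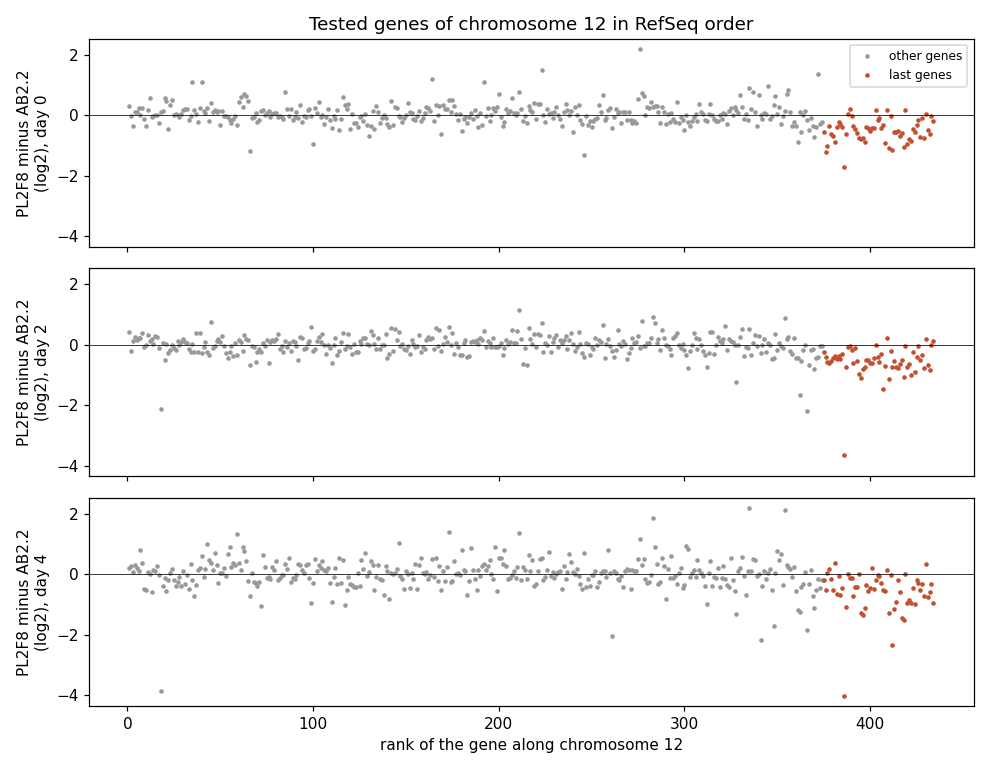
Difference between PL2F8 and AB2.2 (log2, y axis) of each tested gene of chromosome 12 against its rank along the chromosome (x axis), at days 0, 2 and 4 in the panels from top to bottom. The last 60 genes, in colour, centre on -0.51, -0.52 and -0.47 in the 3 panels, while the other genes centre near 0.

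Some genes were detected in 1 line only. At day 0, of 16113 genes 417 were detected on both PL2F8 arrays and neither AB2.2 array, and 152 the other way round. The lowest signal of a detected probe was 4.72 and 4.71 in PL2F8, against 4.79 and 4.78 in AB2.2. The part of this limit in the 2 counts was not tested. The limma test called 227 of the 417 genes and 94 of the 152, where 27.4% of all genes were called. These genes were picked by detection on the same 4 arrays, so shares above that of all genes follow in part from the choice. Most of the genes detected in 1 line lay close to the detection limit: a bound of at least 2-fold was reached by 18 genes in PL2F8 and 4 in AB2.2. Besides the genes above, those in PL2F8 included histidine ammonia-lyase Hal (at least 2.65-fold higher), the protease inhibitor Serpinb9g (at least 2.40-fold) and the surface protein Ly6k (at least 2.79-fold). Those in AB2.2 included the neuroendocrine factor Insm1, at least 3.51-fold lower in PL2F8, Neurod1 (at least 2.30-fold lower) and cubilin Cubn (at least 1.71-fold lower). With the detection p below 0.01 the counts were 571 in PL2F8 and 94 in AB2.2.

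The arrays of days 2 and 4, which share no sample with day 0, showed which differences between the lines were also called after LIF was removed. Of the 2310 genes higher at day 0, 960 (41.6%) were called higher again at day 2 and 105 called lower, where 11.8% of all genes were called higher. Of the 2108 lower genes 917 (43.5%) were called lower again at day 2 and 63 called higher, where 11.9% of all genes were called lower. At day 4, 1140 of the higher genes (49.4%) and 890 of the lower genes (42.2%) were called the same way, where 21.3% and 20.6% of all genes were called higher and lower, and 269 and 340 were called the opposite way. Among genes that differed at least 2-fold at day 0, 138 of 195 higher and 77 of 105 lower were called the same way at day 2, and 5 and 3 the opposite way. At day 4, 142 of these higher genes and 59 of these lower genes (56.2%) were called the same way, and 10 and 19 the opposite way. At days 6 and 8 the PL2F8 arrays were dim: their mean signal was 137.4 and 134.8 at day 6 and 60.1 at day 8, and they detected 40%, 37.8% and 20.9% of probes. There 1004 and 707 of the higher genes and 1005 and 940 of the lower genes were called the same way, where 30.7% and 30.4% of all genes were called higher and 34.1% and 39.2% lower (64.9% and 69.6% in all), and the part of the dim arrays in this was not tested. The opposite call was made for 662 of the higher genes and 623 of the lower genes at day 6 and for 1022 and 740 at day 8. At day 8 more of the day 0 higher genes were therefore called lower (44.2%) than higher (30.6%).

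Prl2c2, Stra8, Xlr4a, Acta2 and Amn kept their side at both days. Prl2c2 differed by 4.03 at day 2 and 4.18 at day 4, Xlr4a by 2.23 and 2.91 and Amn by -3.64 and -4.04, each with an adjusted p below 0.05. Stra8 was then detected in PL2F8 alone and was at least 2.88-fold and 2.91-fold higher at days 2 and 4. Acta2 was then detected in AB2.2 alone and was at least 8.31-fold and 43-fold lower in PL2F8 at days 2 and 4. The difference at day 0 was tested against the mean of those at days 2 and 4, and it was higher at day 0 for 1672 genes (10.4%) and lower for 1555 (9.65%). Without PL2F8 replicate 1 these counts were 1119 and 997, without PL2F8 replicate 2 they were 1106 and 1008, and with median scaling 4596 and 632. Lefty1 had the largest departure on the lower side, and its levels were 6.597 and 6.604 at day 0, 11.39 and 11.52 at day 2 and 9.97 and 10.06 at day 4 in PL2F8, against 9.99 and 9.83, 11.91 and 11.84, and 10.34 and 10.29 in AB2.2. Its line difference was -3.31 at day 0, -0.42 at day 2 and -0.30 at day 4. That of Dppa3 was -2.98, -0.88 and -0.23, and that of Gadd45g was -2.50, -0.78 and 1.45.

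**Figure D4:**
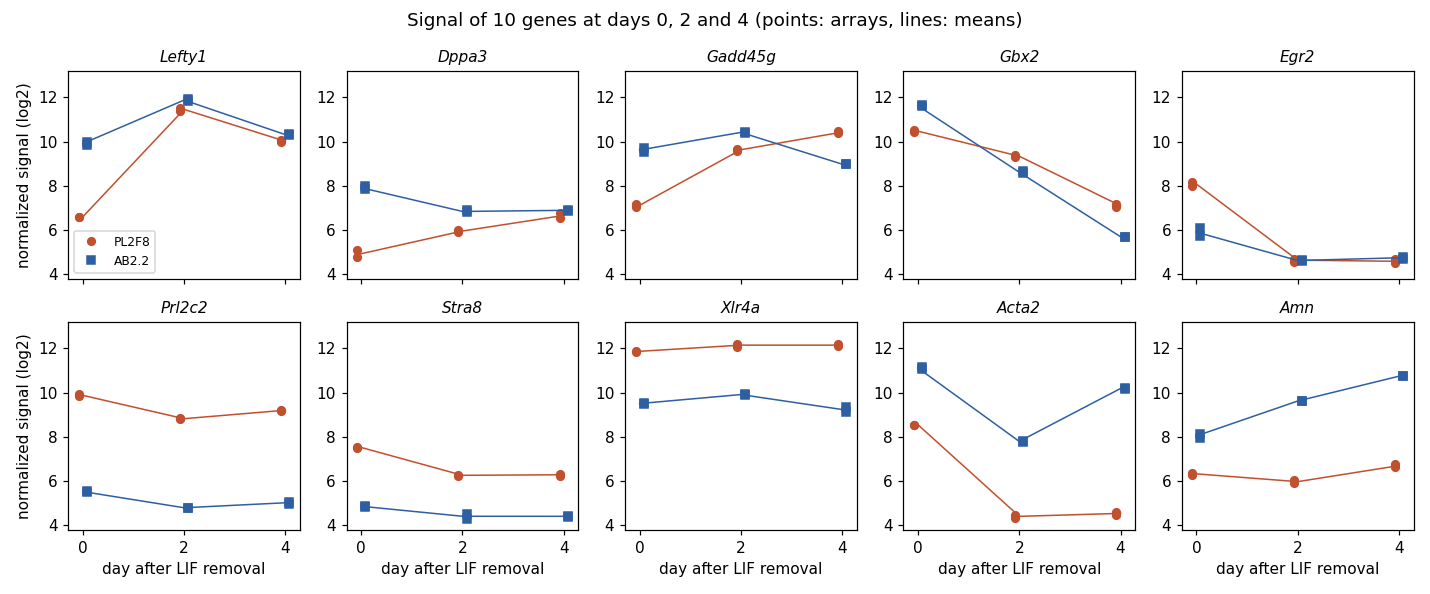
Normalized signal (log2, y axis) of 10 genes at days 0, 2 and 4 after LIF removal (x axis), with points for single arrays and lines through the means, circles for PL2F8 and squares for AB2.2. In the upper row the lines lie closer together or change sides after day 0, with Egr2 undetected on all arrays of days 2 and 4 but 1 of AB2.2 at day 4, and in the lower row they stay apart.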

How the data were processed

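Per the file headers, the deposited probe table held the average intensity of each probe, not normalized, with a detection p-value, and the authors' series matrix held normalized intensity by gene name. Of 45281 lines 445 had shifted fields and were left out. Probe names came from comparing signals with the matrix, 30507 of whose 30848 lines were found, and names were updated with the platform annotation and RefSeq (GRCm38.p6). The authors' software is not given in the sources used here.

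Intensity was background-corrected with limma 3.58.1 in R 4.3.3 (normal-exponential model from detection p, offset 16) and quantile normalized. The 23879 probes detected at p below 0.05 on at least 2 of the 18 arrays were kept, and each gene was read from its brightest probe, including 5229 genes with several. A model with a mean for each of 10 line and day groups had 8 residual degrees of freedom. Neither labels nor headers name a batch, and the number of arrays limits the precision. The test was checked on simulated data.

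The comparison and the 40 gene lists were chosen with earlier results of these data known. Genes are named by rule: the 12 highest and 12 lowest detected on all 4 arrays, the 10 largest bounds in each direction, the 3 smallest p of each list, fixed LIF, imprinted and sex chromosome genes, the 5 largest day 0 against later departures in each direction, and members of runs. Some genes that these rules name are not reported here. Other list members and genes of chromosome 12 are examples chosen after their values were seen. Alternatives were other background, scaling, offset, filter and probe rules, the series matrix, array weights, a replicate block and leaving out arrays.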

Additional observations from a re-analysis of the deposited data

Results flagged for a closer look

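In 10 genes the line difference at day 0 departed most from the mean of those at days 2 and 4, 5 in each direction, by limma's test of that departure. On the lower side it was -2.95 for Lefty1 (adjusted p = 7.15e-09), -2.84 for Gadd45g (adjusted p = 8.26e-09), -2.43 for Dppa3 (adjusted p = 8.36e-07), -2.21 for the homeobox gene Gbx2 (adjusted p = 3.82e-07) and -1.96 for Tdrd12 (adjusted p = 2.83e-07). Tdrd12 differed by -1.36 at day 0 and by 1.36 at day 4, and Gbx2 by -1.15 and 1.40, both called on both days.

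On the higher side it was 4.16 for transthyretin Ttr (adjusted p = 1.03e-07), 3.99 for the apolipoprotein Apoa1 (adjusted p = 4.07e-09), 3.47 for the pepsinogen Pga5 (adjusted p = 6.7e-10), 3.35 for the chloride channel gene Clic6 (adjusted p = 2.28e-07) and 3.16 for the mucin Muc13 (adjusted p = 1.22e-06). At day 0 neither line detected Ttr or Muc13 and only AB2.2 detected Apoa1. The departures of these 3 genes therefore set measured later values against day 0 values at the detection limit. At day 4 all 5 were lower in PL2F8: Ttr had 6.36 and 6.28 in PL2F8 and 11.60 and 11.89 in AB2.2.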

How the results depend on the processing

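The lines' calls were set against 15 other settings for 964 named and list genes. Of 14404 comparisons 13233 kept direction and side of the threshold, 871 lost the call, 295 gained one and 5 changed sign: Egr3 (-0.0245 without background correction), Lca5, Ctnnb1 and Zfp932 (-0.006873, -0.06762 and -0.01682 with the mean of probes) and Zeb2 (0.129 in the series matrix). The cause was not tested. Median scaling gave 3486 higher and 1144 lower genes, 413 higher at least 2-fold, 1176 and 985 genes called the same way at days 6 and 8, 68 and 9 runs, and 4596 and 632 departures between days. Higher and lower genes of at least 2-fold numbered 70 and 36 without background correction, 81 and 38 with an offset of 50 and 73 and 36 in the series matrix, and 170 were lower with the day 0 arrays alone. Leaving out 1 day 0 array gave 1506 to 1662 higher and 1341 to 1481 lower genes, 1336 to 1458 and 1058 to 1189 called the same way at days 6 and 8, 8 to 10 and 8 to 11 runs, and 1106 to 1227 and 997 to 1112 departures. With detection p below 0.01, 94 genes were detected in AB2.2 alone. The labels' replicate numbers are shared by number only, and deviations of same-numbered arrays correlated at 0.02. With the replicate block 2001 genes were higher and 1789 lower, with 11 runs of lower genes. A slide block was not run, since the headers give no slide. Genes near the detection limit have only bounds.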
